A study of Mus musculus with 18 samples.

Results

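Succinate dehydrogenase, complex II of the respiratory chain, was followed through the transcripts of its 4 subunits (Sdha, Sdhb, Sdhc and Sdhd) and its 4 assembly factors (Sdhaf1, Sdhaf2, Sdhaf3 and Sdhaf4). These 8 of the 22180 genes measured were taken by name, with every probe set annotated to 1 of them alone, which gave 9 probe sets. They were selected on the log2 signals of Sdhc, which was among the most lowered genes under thalidomide in these same arrays. The exposure values of Sdhc are therefore given as a description without a test, and the question put to the other 7 genes was whether they fell with it.

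The cells were C57BL/6 mouse embryonic stem cells grown as embryoid bodies, suspended clusters in which early germ layer derivatives appear. Exposed cultures received 0.25 mM thalidomide, a human teratogen that binds the ubiquitin ligase receptor cereblon, for 24, 48 or 72 h from day 3 of the embryoid body stage. Control cultures were read as the vehicle cultures of the same hours, which per the treatment protocol received 0.25% DMSO, although the series design text names them unexposed and their source names give hours after the embryoid bodies formed. Each of the 6 groups had 3 arrays, labelled as biological replicates, and this small number limits how precise any value can be. All values are log2 signals, so a difference of 1 is a 2-fold change, and levels of different genes are not compared because each rests on its own probes. A note of re-analysis stands in the titles of 12 arrays, namely all 6 of 24 h and the controls of 48 and 72 h. At those later times the note and thalidomide cannot be told apart.

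The stem cell label was checked with pluripotency genes. Nanog averaged 8.62 ± 0.13 in exposed and 9.13 ± 0.21 in control embryoid bodies at 24 h, and 5.30 ± 0.72 in exposed and 4.82 ± 0.33 in control ones at 72 h (SD, n = 3 each). Pou5f1 averaged 6.54 ± 0.14 in exposed and 6.85 ± 0.08 in control ones at 24 h, and 5.89 ± 0.07 in exposed and 5.77 ± 0.05 in control ones at 72 h. Both genes were therefore lower later in both arms, while Sox2, which neural cells also express, was 9.44 ± 0.40 in exposed and 8.96 ± 0.14 in control ones at 72 h. Each array read a mixture of cells, so fewer cells of a type and less RNA per cell cannot be told apart.

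Succinate dehydrogenase oxidises succinate to fumarate in the tricarboxylic acid cycle and passes the electrons to ubiquinone, and it is the respiratory complex whose subunits are all encoded in the nucleus. Sdha is the catalytic flavoprotein with covalently bound FAD, Sdhb carries the iron-sulphur clusters, and Sdhc and Sdhd anchor the complex in the inner mitochondrial membrane, where they hold the haem and the ubiquinone site. Sdhaf2 helps to attach FAD to Sdha, Sdhaf4 binds the flavinated Sdha before it joins Sdhb, and Sdhaf1 and Sdhaf3 serve the iron-sulphur maturation of Sdhb, Sdhaf3 mainly on evidence from yeast and fly.

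Sdhc, a membrane anchor subunit, had by far the most lowered signal of the complex during the first 48 h of thalidomide. At 24 h its log2 signals were 7.48, 7.59 and 7.44 in exposed embryoid bodies, against 8.78, 8.75 and 8.80 in controls. At 48 h they were 7.49, 7.33 and 7.27 in exposed embryoid bodies, against 8.69, 8.71 and 8.78 in controls. Every exposed array lay more than 1 log2 unit below every control array at both times. At 72 h the values were 8.74, 8.55 and 8.41 in exposed embryoid bodies, against 8.58, 8.75 and 8.67 in controls, and the groups overlapped.

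The differences in Sdhc, exposed minus control, were -1.27 ± 0.08 at 24 h, -1.36 ± 0.08 at 48 h and -0.10 ± 0.08 at 72 h on the log2 scale (SE, n = 3 each). In linear terms the exposed signal stood at 41.4% of control at 24 h, 38.9% at 48 h and 93.3% at 72 h. Among the 22180 genes the difference was the third lowest at 24 h and the lowest at 48 h. Within the exposed arm, Sdhc at 72 h was 1.20 ± 0.08 above its level at 48 h. Its 6 group means stood in the order exposed 48 h, exposed 24 h, exposed 72 h, control 72 h, control 48 h and control 24 h. The ranges of neighbours in this order overlapped, except between exposed 24 h, with a highest array of 7.59, and exposed 72 h, with a lowest array of 8.41.

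**Figure D1:**
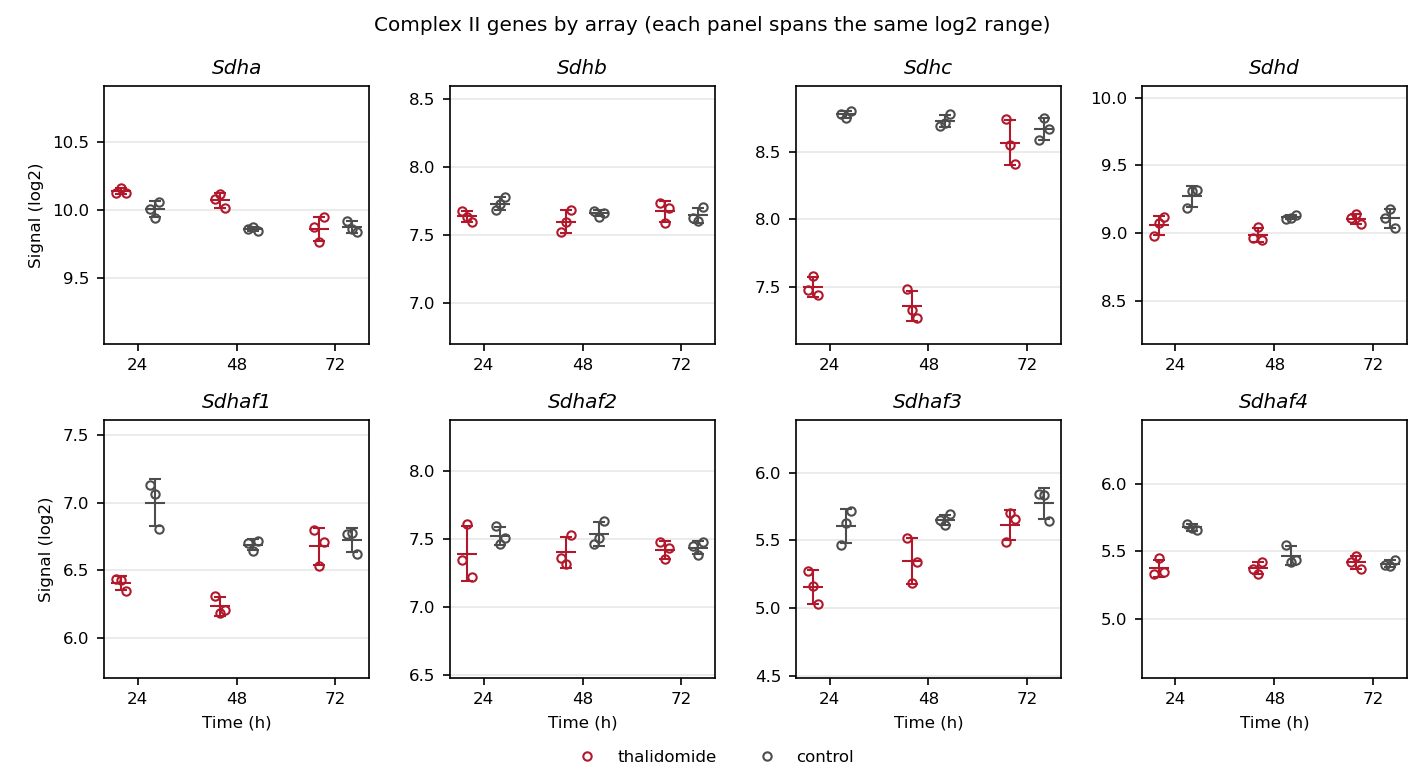
Log2 signal of each of the 8 genes (vertical axes) by hours of exposure (horizontal axes), thalidomide left of control. Points are arrays and bars are means of 3 arrays. Sdhaf1 is drawn by its brighter probe set, and its dimmer probe set is not shown. Sdhc is far below control at 24 and 48 h and overlaps it at 72 h, whereas Sdha, Sdhb and Sdhd move by at most 0.21.

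None of the other subunits passed the test at 24, 48 or 72 h taken singly (limma over all 18 arrays, p-values adjusted by the Benjamini-Hochberg method over 22180 genes, threshold 0.05). Sdhd, the partner of Sdhc in the membrane anchor, had signals of 8.98, 9.07 and 9.12 in exposed embryoid bodies at 24 h, against 9.18, 9.31 and 9.32 in controls. At 48 h it had 8.96, 9.04 and 8.95 in exposed embryoid bodies, against 9.10, 9.11 and 9.13 in controls. All exposed arrays lay below all controls at both times, which at 24 h was true of 15.9% of all genes and at 48 h of 16.9%. The differences were -0.21 ± 0.06 at 24 h (95% interval -0.35 to -0.08, adjusted p = 0.0515) and -0.13 ± 0.06 at 48 h (adjusted p = 0.217), neither past the threshold. The 24 h difference passed with a trended robust prior (adjusted p = 0.0104) and after leaving out genes below the median (adjusted p = 0.0141), and it shrank to -0.13 after cyclic loess normalization (adjusted p = 0.251). At 72 h the Sdhd groups overlapped (difference 0.00, adjusted p = 0.997).

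Sdha, the catalytic subunit, lay on the other side of its controls. Its signals were 10.12, 10.16 and 10.13 in exposed embryoid bodies at 24 h, against 10.01, 9.94 and 10.06 in controls. At 48 h they were 10.08, 10.11 and 10.01 in exposed embryoid bodies, against 9.86, 9.87 and 9.84 in controls. Each exposed array exceeded each control at both times, as did those of 9.23% of all genes at 24 h and 12.3% at 48 h. The differences were 0.13 ± 0.06 at 24 h (adjusted p = 0.222) and 0.21 ± 0.06 at 48 h (95% interval 0.08 to 0.34, adjusted p = 0.0513), and neither passed. At 72 h the difference was -0.01 (adjusted p = 0.984). The 48 h difference passed after cyclic loess normalization (0.24, adjusted p = 0.0239), with a trended robust prior (adjusted p = 0.0066), with array weights (adjusted p = 0.0412), after leaving out genes below the median (adjusted p = 0.0153), and without exposed replicate 2 or 3 of 72 h (adjusted p = 0.0470 and 0.0468).

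Sdhb, the iron-sulphur subunit, had signals of 7.68, 7.63 and 7.60 in exposed embryoid bodies at 24 h, against 7.68, 7.73 and 7.78 in controls. Its groups all but touched at 24 h and overlapped at 48 and 72 h. The differences were -0.09 ± 0.06 at 24 h (95% interval -0.23 to 0.04, adjusted p = 0.438), -0.06 at 48 h (adjusted p = 0.614) and 0.03 at 72 h (adjusted p = 0.951).

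Sdhc was also set against the mean of Sdha, Sdhb and Sdhd on the same array, a difference of log2 signals of which only the change between groups can be read. It was -1.44 ± 0.07, -1.52 ± 0.13 and -0.31 ± 0.17 in exposed embryoid bodies at 24, 48 and 72 h, against -0.23 ± 0.04, -0.15 ± 0.05 and -0.21 ± 0.09 in controls (SD, n = 3 each). Relative to its partners, Sdhc therefore differed by -1.21 at 24 h, -1.37 at 48 h and -0.11 at 72 h, exposed minus control.

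**Figure D2:**
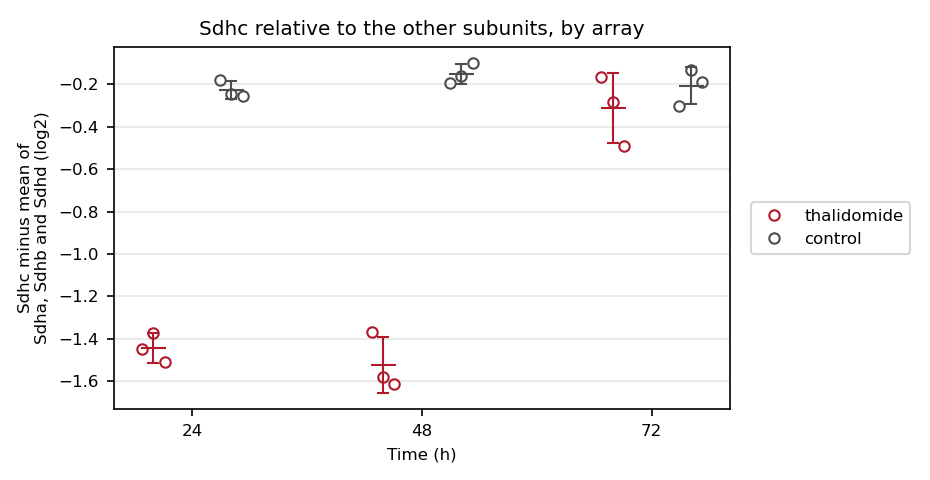
Log2 signal of Sdhc minus the mean log2 signal of Sdha, Sdhb and Sdhd on the same array (vertical axis) by hours of exposure (horizontal axis), a point per array, with bars for the group mean and SD, thalidomide left of control. Exposed arrays of 24 and 48 h average -1.44 and -1.52, and those of 72 h average -0.31, close to the controls.

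Of the 4 assembly factors 3 fell at 24 h, Sdhaf1, Sdhaf3 and Sdhaf4, and 1 of them, Sdhaf1, fell at 48 h. Sdhaf1, the iron-sulphur maturation factor, had signals of 6.44, 6.43 and 6.35 in exposed embryoid bodies at 24 h, against 7.13, 7.06 and 6.81 in controls. The groups did not overlap, and the difference of -0.59 ± 0.09 left 66.2% of the control signal (adjusted p = 0.0012). At 48 h its signals were 6.31, 6.18 and 6.21 in exposed embryoid bodies, against 6.70, 6.64 and 6.72 in controls, again without overlap (-0.45 ± 0.09, 73.0% of control, adjusted p = 0.0075). At 72 h the signals were 6.80, 6.53 and 6.71 in exposed embryoid bodies, against 6.77, 6.77 and 6.62 in controls, with overlap (-0.04, adjusted p = 0.942).

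A second, dimmer probe set of Sdhaf1 disagreed. It read 5.48, 5.02 and 5.56 in exposed embryoid bodies at 24 h, against 5.54, 5.51 and 5.45 in controls, and the groups overlapped. Its differences were -0.15 ± 0.12 at 24 h (adjusted p = 0.567 in a fit of all probe sets), 0.04 at 48 h (adjusted p = 0.880) and 0.01 at 72 h (adjusted p = 0.998). The mean of both probe sets still passed at 24 h and did not at 48 h (-0.20, adjusted p = 0.141), so the Sdhaf1 result rests on the brighter probe set.

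Sdhaf3, which serves the same maturation step, had signals of 5.28, 5.16 and 5.03 in exposed embryoid bodies at 24 h, against 5.47, 5.63 and 5.72 in controls. It fell by 0.45 ± 0.10 on the log2 scale without overlap, to 73.2% of control (adjusted p = 0.0115). At 48 h its signals were 5.52, 5.18 and 5.34 in exposed embryoid bodies, against 5.65, 5.61 and 5.69 in controls. The groups did not overlap there either, but the difference of -0.30 ± 0.10 did not pass (adjusted p = 0.0754), nor did that at 72 h (-0.16, adjusted p = 0.699). One array decided each side of the threshold: without control replicate 3 of 24 h the 24 h difference was -0.39 (adjusted p = 0.0643), and without exposed replicate 1 of 48 h the 48 h difference was -0.39 (adjusted p = 0.0353).

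Sdhaf4, the factor that holds flavinated Sdha, had signals of 5.33, 5.45 and 5.35 in exposed embryoid bodies at 24 h, against 5.70, 5.67 and 5.65 in controls. The groups did not overlap, and it fell by 0.30 ± 0.06 on the log2 scale to 81.2% of control (adjusted p = 0.0071). At 48 h (-0.09, adjusted p = 0.366) and 72 h (0.01, adjusted p = 0.984) it did not pass. Sdhaf2, the flavin attachment factor, read 7.35, 7.61 and 7.22 in exposed embryoid bodies at 24 h, against 7.60, 7.47 and 7.51 in controls, with overlap (-0.13 ± 0.09, adjusted p = 0.447). Sdhaf2 also did not pass at 48 h (-0.13, adjusted p = 0.404) or 72 h (-0.02, adjusted p = 0.984).

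**Figure D3:**
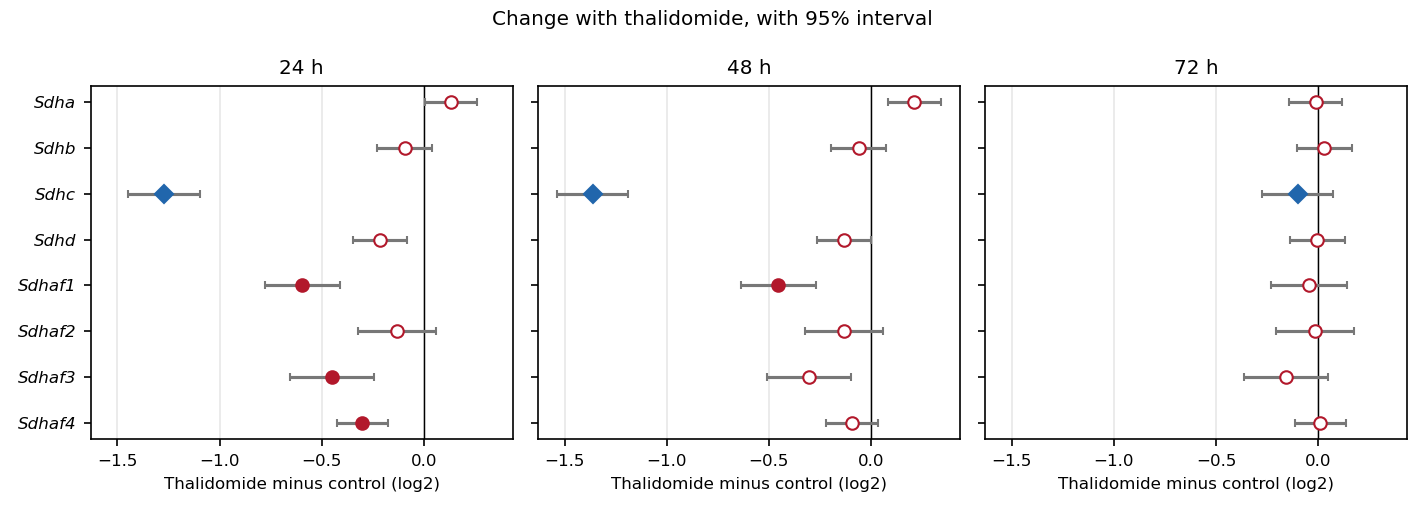
Log2 difference between thalidomide and control (horizontal axis, 0 marked) for the 8 genes at each time, with 95% intervals from limma, and filled points where a tested gene passed an adjusted p of 0.05. Sdhc, drawn as a diamond and not tested, lies at -1.27, -1.36 and -0.10, and the filled points are Sdhaf1, Sdhaf3 and Sdhaf4 at 24 h and Sdhaf1 at 48 h.

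Of the 7 genes other than Sdhc, 3 fell and 0 rose at 24 h, when 5.43% of all genes fell and 1.42% rose. At 48 h 1 of 7 fell, when 4.23% of all genes did. At 72 h limma called 0 of 7, with 0 at an unadjusted p under 0.05, and 0.00902% of all genes. The median difference of the 7 was -0.21 at 24 h, -0.13 at 48 h and -0.01 at 72 h, beside -0.01, 0.01 and 0.00 over all genes. Differences also moved with brightness at 24 h, with genes sorted into 4 bins by mean signal: the median was 0.05 in bin 1, the dimmest, and -0.08 in bin 4, where Sdha, Sdhb, Sdhc, Sdhd and Sdhaf2 lie. Sdhaf1 lies in bin 3 (median -0.05). Sdhaf3 and Sdhaf4 lie in bin 2 (median 0.04), with signals near the array medians of 5.37 to 5.46 over all probe sets. Cyclic loess, which removes such a trend, left Sdhc at -1.18 and Sdhaf1, Sdhaf3 and Sdhaf4 called at 24 h with -0.53, -0.48 and -0.33. It moved the others upward, Sdhd to -0.13, Sdhaf2 to -0.04, Sdhb to 0.00 and Sdha to 0.20, none of them called, and the median of the 7 to -0.13. A fit of the 6 arrays of 24 h alone called none of the 7, with 121 genes called in all, against 1521 in the fit of 18 arrays.

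In the mean effect over the 3 times, limma called 5 of the 7: Sdhd (-0.12, adjusted p = 0.0445), Sdhaf1 (-0.36, adjusted p = 0.0004), Sdhaf3 (-0.30, adjusted p = 0.0028) and Sdhaf4 (-0.13, adjusted p = 0.0228) fell, and Sdha rose (0.11, adjusted p = 0.0483). Over all genes 9.10% fell and 3.93% rose in this mean. The calls of Sdha and Sdhd were lost in 16 and 14 of the 18 fits that left out 1 array, and that of Sdhaf4 in 1 of them, without control replicate 1 of 48 h. Cyclic loess took Sdhd to -0.07 (adjusted p = 0.266), and with a replicate block Sdha no longer passed (0.11, adjusted p = 0.0668).

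The pattern in time of Sdhc, low at 24 and 48 h and near control at 72 h, was put to the other genes as a difference of effects. The effect of thalidomide on Sdhc was 1.17 ± 0.12 higher at 72 h than at 24 h. For Sdhaf1 it was 0.55 ± 0.12 higher at 72 h than at 24 h, which did not pass (adjusted p = 0.0594), and it passed without control replicate 3 of 24 h (0.65, adjusted p = 0.0467) or exposed replicate 2 of 72 h (0.62, adjusted p = 0.0416). None of the 7 passed in this comparison (4 had an unadjusted p under 0.05), in which 0.496% of all genes were called. None passed for 72 h against 48 h (2 with an unadjusted p under 0.05, 0.0947% of all genes called) or for 48 h against 24 h (1 with an unadjusted p under 0.05, 0.00% of all genes called), all by limma.

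The exposed cultures were also compared with themselves over time, a comparison that shares its arrays with those above. At 72 h against 24 h Sdhaf1 rose by 0.27 (adjusted p = 0.0296), Sdhaf3 rose by 0.46 (adjusted p = 0.0021) and Sdha fell by 0.28 on the log2 scale (adjusted p = 0.0030), when 14.4% of all genes rose and 10.6% fell. At 72 h against 48 h Sdhaf1 rose by 0.44 (adjusted p = 0.0043) and Sdha fell by 0.21 on the log2 scale (adjusted p = 0.0389), when 6.42% of all genes rose and 3.76% fell.

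In control embryoid bodies 2 of the 7 genes other than Sdhc fell over time. Sdhc itself, described without a test because these arrays entered its selection, averaged 8.77 ± 0.03 at 24 h, 8.73 ± 0.05 at 48 h and 8.67 ± 0.08 at 72 h (SD, n = 3 each). Sdhaf1 fell by 0.31 on the log2 scale at 48 h (adjusted p = 0.0243) and by 0.28 at 72 h (adjusted p = 0.0248) against 24 h. Sdhaf4 fell by 0.21 on the log2 scale at 48 h (adjusted p = 0.0273) and by 0.27 at 72 h (adjusted p = 0.0025) against 24 h. Over all genes 6.70% fell at 48 h against 24 h, and 14.3% fell and 13.1% rose at 72 h against 24 h. None of the 7 passed between 48 and 72 h by limma (0 at an unadjusted p under 0.05), when 6.53% of all genes did.

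The controls of 24 h enter both the exposure and the control time comparisons, and they were the highest group of Sdhaf1 and of Sdhaf4. Against the controls of 48 h, the exposed arrays of 48 h stood at -0.45 for Sdhaf1 and -0.09 for Sdhaf4, as given above. Without control replicate 1 of 24 h, Sdhd also passed at 72 h against 24 h in controls (-0.21, adjusted p = 0.0393). The 48 h control call of Sdhaf1 was lost without control replicate 1 or 2 of 24 h or replicate 1 or 2 of 48 h, and its 72 h call without control replicate 1 or 2 of 24 h or replicate 3 of 72 h, with adjusted p-values up to 0.123. The 48 h control call of Sdhaf4 was lost without any 1 of the controls of 24 h or without replicate 2 or 3 of 48 h, with adjusted p-values up to 0.107.

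Promoters are shown for the 3 assembly factors that fell together at 24 h and for Sdha, which did not. RefSeq (GRCm38.p6) promoters, the 250 bases before to 50 after the annotated start, were matched by symbol for 7 of the 8 genes, all but Sdhc. The sequences run 5′ to 3′ on the gene's strand, and capitals mark letters that match a motif on either strand. The motifs were those of nuclear respiratory factor 1, a regulator of respiratory chain genes (GCGC, any base, then TGCGC), of ETS factors (CCGGAAG), the GC box of SP factors (GGGCGG) and the cyclic AMP response element (TGAC joined to GTCA).
Sdhaf1, chr7:30322326-30322625, minus strand: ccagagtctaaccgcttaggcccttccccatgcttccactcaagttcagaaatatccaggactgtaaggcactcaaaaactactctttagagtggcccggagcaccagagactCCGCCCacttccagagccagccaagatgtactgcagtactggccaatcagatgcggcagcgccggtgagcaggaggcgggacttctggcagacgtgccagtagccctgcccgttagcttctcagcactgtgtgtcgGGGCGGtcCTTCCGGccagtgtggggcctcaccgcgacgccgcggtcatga
Sdhaf3, chr6:6955768-6956067, plus strand: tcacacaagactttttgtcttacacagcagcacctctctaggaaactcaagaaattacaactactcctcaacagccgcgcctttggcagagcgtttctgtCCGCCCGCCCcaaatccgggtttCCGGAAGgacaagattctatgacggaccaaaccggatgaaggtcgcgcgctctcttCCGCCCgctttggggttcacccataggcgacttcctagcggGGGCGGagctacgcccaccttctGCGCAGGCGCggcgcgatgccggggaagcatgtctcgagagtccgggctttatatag
Sdhaf4, chr1:24005591-24005890, minus strand: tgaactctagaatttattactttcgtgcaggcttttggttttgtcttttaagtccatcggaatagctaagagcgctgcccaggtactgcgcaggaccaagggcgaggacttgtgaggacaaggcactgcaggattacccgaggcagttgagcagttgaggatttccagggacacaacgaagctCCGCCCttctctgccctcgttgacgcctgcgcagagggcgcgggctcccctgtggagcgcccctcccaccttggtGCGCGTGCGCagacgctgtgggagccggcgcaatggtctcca
Sdha, chr13:74350191-74350490, minus strand: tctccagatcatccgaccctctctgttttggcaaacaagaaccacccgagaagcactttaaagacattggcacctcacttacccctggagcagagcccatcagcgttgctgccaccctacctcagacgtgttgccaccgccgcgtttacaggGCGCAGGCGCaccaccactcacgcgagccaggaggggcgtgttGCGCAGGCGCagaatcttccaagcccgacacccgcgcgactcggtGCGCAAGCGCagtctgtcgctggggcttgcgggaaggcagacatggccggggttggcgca

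The nuclear respiratory factor 1 letters occurred in 4 of the 7 promoters, those of Sdha, Sdhd, Sdhaf3 and Sdhaf4, and in 4.603% of 32851 mouse promoters of the same length. Promoters of 1 chromosome, chr18, were left out of these 32851. Sdha held them at 3 places, first bases at -98, -55 and -10 from the start site, Sdhaf3 at 1 place (-7) and Sdhaf4 at 1 place (9). The ETS letters occurred in 5 of 7 promoters and in 8.858% of all, the GC box in 6 of 7 and in 35.658% of all, and the cyclic AMP response element in 0 of 7 and in 1.79% of all. In Sdhaf3 a pair of GC boxes overlap and are printed as 1 run of capitals. Of the 3 assembly factors that fell, Sdhaf1 lacked the nuclear respiratory factor 1 letters in this window. Sdhaf3 and Sdhaf4 held them, as did Sdha. Any bearing of these letters on the changes was not tested.

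Some nuclear genes of the other respiratory complexes also fell at 24 and 48 h. Of 64 measured subunits of complexes I, III, IV and V, 21 fell and 0 rose at 24 h, with a median difference of -0.22. Over all genes 5.43% fell and 1.42% rose at 24 h. In the brightest bin of all genes the median was -0.08 at 24 h. The counts and medians of these 64 genes and of the lists below rest on the main fit alone. They were not repeated after cyclic loess, within brightness bins or on the arrays of 24 h alone. At 48 h 14 fell and 1 rose (Ndufa11, 0.32), with a median of -0.16, when 4.23% of all genes fell. At 72 h limma called 0 of 64, with 1 at an unadjusted p under 0.05, and 0.00902% of all genes. The lowest at 24 h was Ndufb8, an accessory subunit of complex I, at -0.74. The lowest at 48 h was Atp5l, subunit g of ATP synthase, at -0.73. Sdhc stood at -1.27 and -1.36, but it was chosen for its low values in these same comparisons. That it lay below the 64 is therefore no result about the other complexes. By complex, 14 of 32 genes of complex I fell at 24 h, 1 of 8 of complex III, 3 of 9 of complex IV and 3 of 15 of complex V. In controls, 22 of the 64 fell at 72 h against 24 h, with a median of -0.17, when 14.3% of all genes fell.

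**Figure D4:**
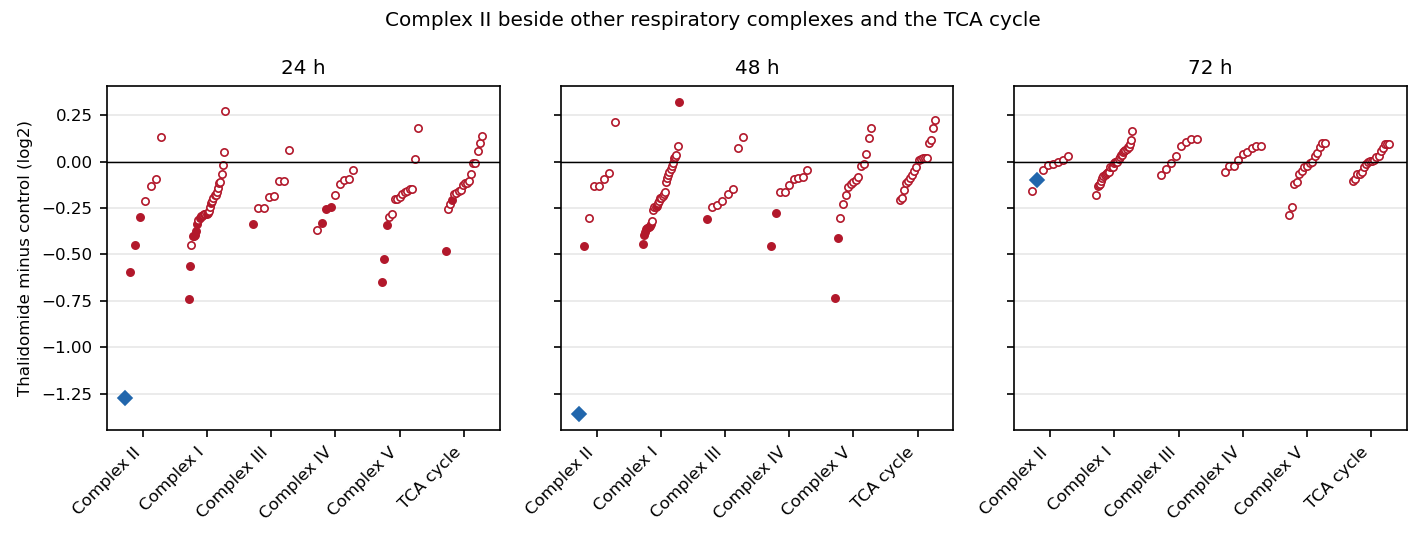
Log2 difference between thalidomide and control (vertical axis) at 24, 48 and 72 h for the genes of complex II, of complexes I, III, IV and V and of the tricarboxylic acid (TCA) cycle, a point per gene, filled where the gene passed an adjusted p of 0.05, with Sdhc, not tested, as a diamond. The lowest of the 64 genes of the other complexes are -0.74 at 24 h and -0.73 at 48 h. Sdhc, chosen for its low values, lies at -1.27 and -1.36.

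Among the listed genes of the rest of the tricarboxylic acid cycle, few passed under thalidomide at single times. At 24 h 2 of 18 cycle genes fell by limma, when 5.43% of all genes did. Of the 18, 7 had an unadjusted p under 0.05, and the median difference of the 18 was -0.12. Idh3a, the catalytic subunit of the NAD-dependent isocitrate dehydrogenase, fell by 0.48 on the log2 scale (adjusted p = 0.0022). Sucla2, a subunit of the ligase that forms succinate, fell by 0.21 (adjusted p = 0.0481). At 48 h limma called 0 of 18 (6 at an unadjusted p under 0.05), when 4.23% of all genes fell. At 72 h it called 0 of 18 (0 at an unadjusted p under 0.05), when 0.00902% of all genes were called. In controls at 72 h against 24 h, 8 of 18 fell, with Idh3a at -0.97, and 1 rose, Idh2 at 0.94. Over all genes 14.3% fell and 13.1% rose in that comparison.

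Genes that supply the cofactors and the electron acceptor of the complex were examined next. Over all genes 5.43% fell at 24 h and 4.23% at 48 h. Of 12 iron-sulphur assembly genes 3 fell at 24 h, among them the co-chaperone Hscb (-0.53, adjusted p = 0.0243) and Isca2 (-0.44, adjusted p = 0.0022), which serves late cluster assembly. At 48 h 1 of 12 fell, the scaffold Iscu (-0.25, adjusted p = 0.0415). Of 12 ubiquinone synthesis genes 4 fell at 24 h, with Coq4 at -0.48 and the methyltransferase Coq3 at -0.46, and 2 fell at 48 h, with Pdss2, which makes the isoprenoid tail, at -0.36 and Coq4 at -0.30. Among 6 other enzymes that reduce ubiquinone, Etfdh, which takes electrons from fatty acid oxidation, fell at 24 h (-0.41, adjusted p = 0.0162) and at 48 h (-0.44, adjusted p = 0.0135). None of the 4 flavin supply genes passed at 24, 48 or 72 h by limma (1, 2 and 0 at an unadjusted p under 0.05).

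Summed levels of some cell type markers differed between exposed and control embryoid bodies. A sum of signals weighs its brightest members most. At 24 h the summed level of 8 pluripotency markers was 11.1 to 11.3 in exposed embryoid bodies, against 11.7 to 11.9 in controls, and that of 5 primitive streak markers was 10.8 to 10.9 in exposed, against 11.2 to 11.3 in controls (log2 of summed signals, range of 3 arrays). Tdgf1 alone of the pluripotency markers passed (-0.75). The median difference of the 8 was 0.06, so the lower sum was not shared by the typical marker. Of the 5 streak markers 1 passed, with a median of -0.45. Over all genes 5.43% fell at 24 h. At 48 h both sums overlapped between the arms. The sum of 8 endoderm markers at that time was 11.11 to 11.13 in exposed, against 11.18 to 11.30 in controls. Cxcr4 was the 1 endoderm marker that fell at 48 h (-0.42), and the median difference of the 8 was -0.06. The sum of 9 cardiac markers overlapped at 24 and 48 h and was 10.3 to 11.5 in exposed and 12.05 to 12.08 in control embryoid bodies at 72 h. Myl7 was the 1 cardiac marker that fell at 48 h (-1.09), when 4.23% of all genes fell. Ryr2 was the 1 that passed at 72 h (-0.84), when 0.00902% of all genes were called. The median difference of the 9 at 72 h was also -0.84, and the highest was -0.06 (Nkx2-5). Of the 9 cardiac markers, 7 had an unadjusted p under 0.05 at 72 h. The sum of 6 neural markers was 8.56 to 8.73 in exposed, against 8.73 to 8.86 in controls at 24 h, overlapped at 48 h, and was 9.05 to 9.74 in exposed, against 8.48 to 8.90 in controls at 72 h. The sum of 8 blood and endothelial markers overlapped at 24 and 48 h and was 9.35 to 10.2 in exposed, against 10.4 to 10.6 in controls at 72 h. Of the 6 neural markers limma called 0 at 24, 48 and 72 h (0, 1 and 4 at an unadjusted p under 0.05), and of the 8 blood and endothelial markers also 0 (0, 2 and 2). No marker is listed at 0, since log2 signals of this kind have no zero, and the part of cell composition in the changes of the assembly factors was not tested.

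The genes whose log2 signals over the 18 arrays were most like those of Sdhc were Mrpl10 and Mrps21, proteins of the mitochondrial ribosome, Ercc3, a helicase of transcription factor TFIIH, the condensin subunit Ncaph, the cytokinesis factor Ect2, and Mlf2. Their Pearson r with Sdhc ran from 0.961 to 0.970, which describes these arrays only, since the points share the 6 groups. Mrps21 differed by -0.76 at 24 h, -0.82 at 48 h and -0.09 at 72 h, and Mrpl10 by -0.48, -0.54 and -0.11. The most opposed were the ubiquitin ligase gene Rnf41 (r = -0.961), Dexi (r = -0.937), which differed by 1.01 at 24 h, 0.85 at 48 h and 0.00 at 72 h, and Ankrd17 (r = -0.934).

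Within the complex, the r of Sdhc over the 18 arrays was 0.868 with Sdhaf1, 0.808 with Sdhaf3, 0.681 with Sdhd, 0.557 with Sdhaf4, 0.462 with Sdhb, 0.416 with Sdhaf2 and -0.762 with Sdha. Around the 6 group means these values lay between -0.14 and 0.28, so the likeness is one of group means. The genes most like the other members were Usp10 for Sdha (r = 0.939), Tpst2 for Sdhb (r = 0.817), Znrd2 for Sdhd (r = 0.920), Mettl22 for Sdhaf1 (r = 0.915), Prdx4 for Sdhaf2 (r = 0.809), Pctp for Sdhaf3 (r = 0.921) and Mrpl21 for Sdhaf4 (r = 0.912).

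The 3 nearest measured protein-coding genes on each side of Sdhc in the RefSeq order of GRCm38.p6 are Fcgr4, Fcgr3 and Cfap126 on one side and Pcp4l1, Nr1i3 and Tomm40l on the other. None passed at 24, 48 or 72 h by limma (2, 2 and 0 of the 6 at an unadjusted p under 0.05). Over all genes 5.43% fell and 1.42% rose at 24 h, 4.23% fell at 48 h, and 0.00902% were called at 72 h. An unadjusted p under 0.05 was held by 4710, 5161 and 2023 of all 22180 genes at those times. With 6 genes at these shares, the lack of a call is no result about the region. Their differences ran between -0.10 and 0.26 at 24 h and between -0.19 and 0.23 at 48 h. Sdhc, chosen for its low values, stood at -1.27 and -1.36.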

How the data were processed

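Total RNA of embryoid bodies was hybridised to Affymetrix arrays, 18 in all. The authors deposited 1 log2 signal for each probe set and array, computed by RMA (robust multi-array average). The submitters' processing notes name Affymetrix Expression Console 1.3. RMA equalises the distribution of signals between arrays, so a shift shared by most transcripts would not show. Detection values were not used, so dim signals could not be set against background. The sources used here name no genome build for the files.

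Of 41345 probe sets, 23521 carried 1 gene symbol in the platform annotation, and 23328 of these matched RefSeq genes of GRCm38.p6. The probe set with the highest mean stood for a gene, which left 22180 genes. limma 3.58.1 (R 4.3.3) fitted 1 mean per group over the 18 arrays, with 12 residual degrees of freedom and a prior worth 4.35. Two-sided tests had Benjamini-Hochberg adjustment over all genes within a comparison and a threshold of 0.05. Errors of differences are SE and those of levels SD. The p-values measure the spread between arrays that the labels call biological replicates.

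The 8 genes, the gene lists and the tests were chosen with earlier results of these data known. Named genes beyond the 8 are up to 2 called members per list and direction with the largest change (otherwise the smallest p), the genes most like a member, and the neighbours of Sdhc. On simulated data at 24 h, 22180 genes with 50 at each size, 100% of genes shifted by 1 and 64% to 68% of those shifted by 0.5 on the log2 scale were recovered. Of the genes called there, 5.68% had not been shifted. The simulated noise was independent between genes and no other gene differed, whereas 1521 genes were called in the data. Shifts smaller than 0.5 were not simulated. Alternatives covered the probe set rule, filter, normalization, prior, array weights, arrays fitted, replicate block and each array left out.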

Additional observations from a re-analysis of the deposited data

How the results depend on the processing

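Over 64 results of the 8 genes and 1640 alternative values, no difference past the threshold changed its sign, and 24 differences not past it did. The 129 alternative values of Sdhc moved by less than the spread between arrays, at -1.31 to -1.18 for 24 h, -1.42 to -1.29 for 48 h and -0.19 to -0.02 for 72 h. Counts of called genes other than Sdhc moved as follows. At 24 h (3 of 7), the fit of the compared groups alone called 0, and leaving out 1 array 2 to 3. At 48 h (1 of 7), the mean of probe sets called 0, while cyclic loess, a filter at the median signal, array weights and a trended robust prior called 2 each, and leaving out 1 array 1 to 2. For the mean over times (5 of 7), all probe sets and the median filter called 3 each, and leaving out 1 array 2 to 4. For 72 h against 24 h of exposure effect (0 of 7), the median filter and the trended prior called 1 each, and leaving out 1 array 0 to 1. In controls at 48 h against 24 h (2 of 7), loess and the median filter called 1 each, the compared groups alone 0, the trended prior 3 (Sdhaf1, with Sdha and Sdhd gained and Sdhaf4 lost), and leaving out 1 array 0 to 2. At 72 h against 24 h in controls (2 of 7), the mean of probe sets called 1, the trended prior 4, and leaving out 1 array 1 to 2. The cause of these moves was not tested. Sdhaf3 and Sdhaf4 are absent after the median filter, and the fit of the compared groups alone has fewer arrays. Cyclic loess lowered the share of called genes that fell to 57.3% at 24 h, against 79.2% without it. Same-numbered arrays did not deviate together (1 of 9 pairs over 0.1), and with a replicate block the counts were 3 at 24 h, 1 at 48 h, 0 at 72 h and 4 in the mean over times, where the Sdha call was lost. The mean over times was not run on the compared groups alone. Limits on all values are 3 arrays a group, 1 probe set for all members but Sdhaf1, and no measure of background, protein or enzyme activity.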

Other observations

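Genes outside the complex that handle succinate, or whose regulator is sensitive to it, were also listed. Of 8 genes for succinate transport, sensing and neighbouring reactions, limma called 0 at 24, 48 and 72 h (0, 1 and 0 at an unadjusted p under 0.05). Over all genes 5.43% fell and 1.42% rose at 24 h, 4.23% fell at 48 h, and 0.00902% were called at 72 h. An unadjusted p under 0.05 was held by 4710, 5161 and 2023 of all 22180 genes at those times. With 8 genes at these shares, 0 calls is no result about them. The member with the smallest p at 24 h was Sirt5, a mitochondrial desuccinylase, at -0.24, which did not pass. In controls at 72 h against 24 h 1 of the 8 rose, Aldh5a1, the enzyme that makes succinate from succinic semialdehyde, at 0.44. Of all genes 13.1% rose in that comparison.

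Targets of hypoxia-inducible factor, which is held down by oxygen- and succinate-sensitive hydroxylases, gave 1 call. Of 20 targets, Egln1, which encodes such a hydroxylase, fell at 24 h (-0.39, limma adjusted p = 0.0203), when 5.43% of all genes fell. At 48 h limma called 0 of 20 and at 72 h 0 of 20 (2 and 1 at an unadjusted p under 0.05). At 48 h 4.23% of all genes fell, and at 72 h 0.00902% were called. An unadjusted p under 0.05 was held by 5161 and 2023 of all 22180 genes at those times. In controls at 72 h against 24 h 8 of the 20 rose, with Vegfa, the vascular growth factor, at 0.80, and 4 fell, with Ddit4 at -0.92, beside 13.1% and 14.3% of all genes.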
